A study of Danio rerio with 6 samples.

Results

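Transcripts of FGF and MAP kinase signalling genes were compared between scarb2a mutant and wild type zebrafish (Danio rerio), in reporter-positive cells of the embryonic head. The members are the 71 rows, of 11218 genes in the deposited table, whose symbols begin with fgf, spry, spred, dusp, mapk and a digit, map2k, map3k, etv1, etv4, etv5 or il17rd. By role they comprised 14 FGF ligands, homologous factors, binding proteins and receptors, 24 feedback regulators and dual specificity phosphatases, 26 kinases and 2 kinase scaffolds. The other 5 members share only the letters of the name. fgfr1op encodes a centrosomal protein, fgfr1op2 is named after a fusion partner of a receptor, and spryd3 and spryd4 (in 2 rows) carry a SPRY domain but are not Sprouty genes. The set is thus wider than FGF and MAP kinase signalling proper, since it also takes in intracellular FGF homologous factors and phosphatases with other substrates.

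There were 3 libraries of scarb2a mutants (replicates 1, 2 and 3) and 3 of their wild type siblings (replicates 1, 3 and 4). scarb2a encodes a zebrafish homologue of the lysosomal membrane protein LIMP-2, and the title of the series places the question in radial glia progenitors and brain vessels. Fish of both genotypes were at 48 hours post fertilization and carried the reporter TgBAC(scar2ba:KalTA4; UAS-mKate2), named as the series spells it, in which a bacterial artificial chromosome drives the activator KalTA4 and through it the red protein mKate2. Each library was made from 5000 live reporter-positive cells of a pool of 50 heads, and the labels call the libraries biological replicates. MARS-seq, adapted here to bulk RNA, reads tags near transcript 3′ ends. The sources used here do not name the mutant allele. Values are normalized counts, meaning gene counts divided by 1 factor per library.

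The counts came to between 1560238 and 2086990 per library. scarb2a itself, from 12 counts in mutants and 7 in wild type, had 1, 5.9 and 4.5 normalized counts in mutants against 3.5, 2.2 and 1.6 in wild type. The groups overlapped (two-sided exact permutation p = 0.7, with 0.1 the smallest possible for 3 against 3 libraries), so it checks neither the labels nor the sort. A 3′ tag can also lie outside a lesion. In bulk samples fewer cells of a type and less RNA per cell cannot be told apart, and markers of other cells differed between the genotypes. Of 13 mesenchyme and mural cell markers tested 12 were higher in the mutant, and their summed level was 4100.4 to 4795 normalized counts in mutants against 1696.5 to 2128 in wild type. Of 17 neuron markers 9 were lower, with sums of 11266 to 11751 in mutants against 13747.5 to 14692 in wild type. Of 20 dissociation and heat shock genes 14 were higher, with sums of 13642 to 15188 in mutants against 8436 to 9519 in wild type. Of 12 radial glia markers 2 were higher and 5 lower, gfap among the lower, and none of the 12 was at 0 in a whole group. All 9 lens markers tested and 10 of 15 retina markers were lower, with lens sums of 18 to 60 in mutants against 2166.5 to 3017 in wild type.

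Fibroblast growth factors are secreted proteins that bind receptor tyrosine kinases together with heparan sulphate. The receptors switch on Ras, which starts a relay of kinases, Raf, MEK (the map2k1 and map2k2 genes) and ERK (mapk3 here). ERK activates ETS factors such as Etv4 and Etv5 and induces its own inhibitors, the Sprouty proteins, the phosphatase Dusp6 and Sef (il17rd), so that these transcripts are widely read as targets of the pathway. The p38 and JNK kinases form parallel arms that respond to stress and cytokines. In the zebrafish brain Fgf8a and Fgf3 are known for patterning the midbrain-hindbrain boundary, the hindbrain and the forebrain.

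Of 58 members with a mean of at least 5 normalized counts, 7 were higher and 2 lower in the mutant at an adjusted p of 0.05 (limma on log2(value + 1), Benjamini-Hochberg adjustment over 9647 genes). The higher genes were the receptor genes fgfr4 and fgfrl1a, the binding protein gene fgfbp1a, the feedback genes spry2, spry4 and dusp2, and the p38 kinase gene mapk11, and the lower ones were fgf13b and dusp22a. The share called, 15.5% of the members, lay near that of all genes, 19.4%. By direction 12.1% were higher, against 10.9% of all genes, and 3.45% lower, against 8.5% of all genes. The libraries of the 2 genotypes did not overlap in 19 of the 58 members, or 32.8%, against 34.6% of all genes. The median log2 difference of the members was 0.03, and that of all genes tested was -0.01. These shares, except that of lower members, are near those of all genes and mark nothing particular to the set. The share of lower members rests on 2 genes, and nothing is read from it.

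How many members passed depended on scaling and on single libraries. When each library was scaled to an equal total, the median of all genes was -0.12, and 3 members were higher and 5 lower, against 796 higher and 1305 lower of all genes, where the deposited scaling gave 1053 and 820. The 7 higher members became 3 without mutant replicate 3, 4 without mutant replicate 1 and 4 without wild type replicate 3. Over all genes the same fits called 791, 808 and 848 higher, against 1053 with every library. The 2 lower members became 0 without mutant replicate 1, mutant replicate 2 or wild type replicate 3, where 6, 4 and 5 were past an unadjusted p of 0.05, and 1 without wild type replicate 1 or 4. Over all genes these fits, in that order, called 671, 650, 590, 641 and 598 lower, against 820 with every library. fgfr4 and fgfrl1a were called in each of the 19 alternatives, and every other call was lost in some.

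**Figure D1:**
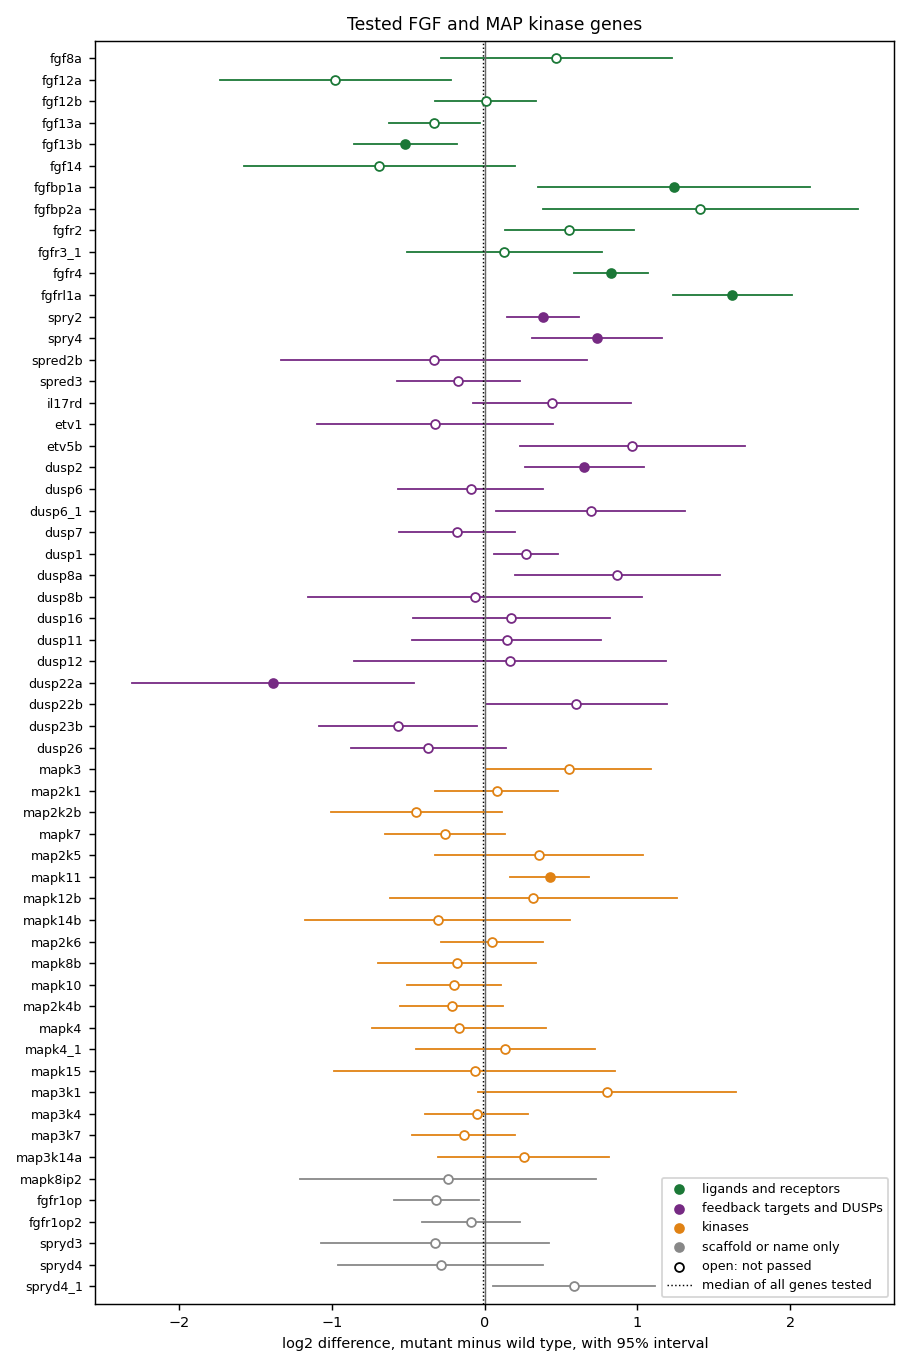
Log2 differences (mutant minus wild type, x axis) of the 58 tested members, 1 per line, with 95% intervals from limma; filled points passed an adjusted p of 0.05 and the dotted line is the median of all genes tested. The interval of fgfrl1a, from 1.23 to 2.01, is the one that lies farthest above 0, and most kinase intervals span 0.

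Of 4 receptor genes tested 2 were higher in the mutant, where 10.9% of all genes were, and 2 did not pass. Each was measured by 117 to 774 counts over the 6 libraries. fgfrl1a encodes an FGF receptor-like protein that binds FGFs and lacks the tyrosine kinase domain of the other receptors. It had 60, 69.3 and 63.5 normalized counts in mutants against 23.1, 18.4 and 19.3 in wild type. Every mutant library was more than double every wild type one, and the ratio of the means was 3.17. The log2 difference was 1.62 ± 0.185 (SE; limma adjusted p = 3.01e-06), and from 1.56 to 1.72 with any 1 library left out.

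fgfr4, a receptor tyrosine kinase gene, had 168.7, 161.5 and 153.2 normalized counts in mutants against 84.3, 86.6 and 101.2 in wild type. The groups were far apart relative to their spread, 161.1 ± 7.76 in mutants and 90.7 ± 9.17 in wild type (SD, n = 3 each). The log2 difference of fgfr4 was 0.83 ± 0.117 (SE; limma adjusted p = 4.01e-05). fgfr2, another receptor kinase gene, had 43.5, 43.6 and 49 in mutants against 24.2, 29.2 and 40.2 in wild type. Its groups did not overlap, but the difference of 0.55 ± 0.201 (SE) missed the threshold (limma adjusted p = 0.0609). Without wild type replicate 4, the highest of the wild type libraries, the fgfr2 difference was 0.75 (limma adjusted p = 0.0232). The row fgfr3_1 had 17.6, 18.8 and 19.9 in mutants against 16.2, 10.8 and 28.1 in wild type, where the wild type libraries spread more widely than the mutant ones. The interval of its difference ran from -0.51 to 0.77, and the sources used here do not say which part of fgfr3 the suffixed row stands for. The mesenchyme markers were higher in the same mutant libraries as fgfr4 and fgfrl1a, and their part in the result was not tested.

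**Figure D2:**
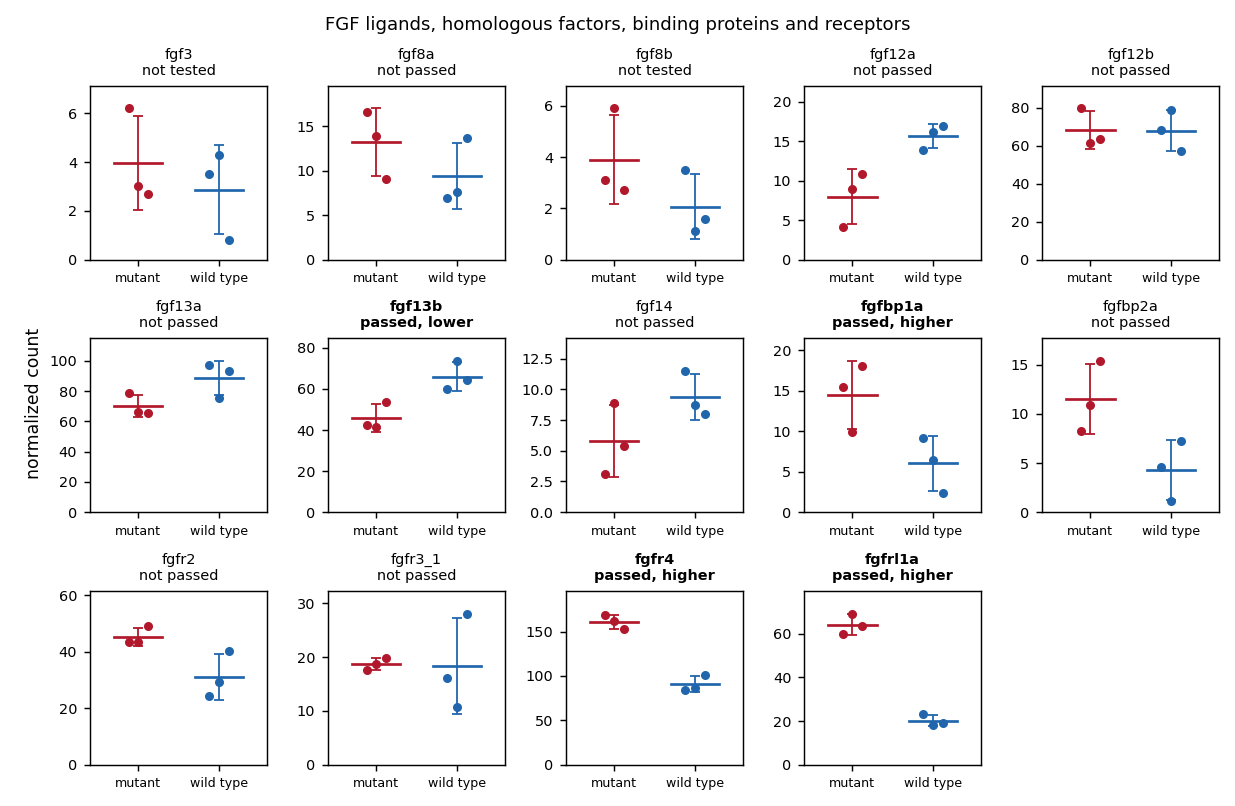
Normalized counts (y axis, each from 0) of the 14 FGF ligand, homologous factor, binding protein and receptor genes in the 3 mutant (red, left) and 3 wild type (blue, right) libraries; bars are means and whiskers SD. The groups stand apart for fgfrl1a, with all mutant libraries at 60 or above and all wild type libraries at 23.1 or below, while those of fgf12b, fgf3 and fgfr3_1 overlap.

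Genes of FGF binding proteins, which release FGFs from the matrix and carry them to receptors, were low, with 62 and 50 counts in all. fgfbp1a had 15.5, 9.9 and 18.1 normalized counts in mutants against 9.2, 6.5 and 2.4 in wild type. All mutant libraries lay above all wild type ones, although mutant replicate 2 was close to wild type replicate 1. The log2 difference was 1.24 ± 0.425 (SE; limma adjusted p = 0.0469). That call was lost without mutant replicate 1 or 3 or wild type replicate 3 or 4 (limma adjusted p from 0.0636 to 0.196), and without wild type replicate 4 the fgfbp1a difference was 0.79. fgfbp2a had 8.3, 10.9 and 15.4 in mutants against 4.6, 1.1 and 7.2 in wild type, a difference of 1.41 ± 0.494 (SE) that missed the threshold (limma adjusted p = 0.0516). It passed without wild type replicate 4 (0.0265). Of 8 epidermal markers tested 6 were higher in the same libraries, with sums of 8097.5 to 8434 in mutants against 3973 to 5823 in wild type, and their part in these values was not tested.

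Secreted FGF ligands had few counts, and in none of the 3 were the groups apart. fgf8a, the ligand of the midbrain-hindbrain boundary, had 16.6, 13.9 and 9.1 normalized counts in mutants against 6.9, 7.6 and 13.7 in wild type. The groups overlapped through mutant replicate 3 and wild type replicate 4. The log2 difference was 0.47 ± 0.360 (SE; limma adjusted p = 0.411), with an interval from -0.29 to 1.22. fgf3, from 12 counts in mutants and 8 in wild type, had 6.2, 3 and 2.7 in mutants against 3.5, 4.3 and 0.8 in wild type (exact permutation test, two-sided, p = 0.6). fgf8b, a paralogue of fgf8a, had 12 counts in mutants and 6 in wild type (exact permutation test, two-sided, p = 0.3). Both genes lie under the filter on low values, and in both the groups overlapped.

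FGF homologous factors (the fgf12, fgf13 and fgf14 genes) resemble FGFs in sequence but stay inside the cell, where they bind voltage-gated sodium channels, and are known from neurons. Of 5 tested 1 fell, where 8.5% of all genes were lower, and with 5 genes nothing is read from that share. The median log2 difference of the 5 was -0.52, against -0.01 for all genes. fgf13b had 42.4, 41.6 and 53.5 normalized counts in mutants against 60, 73.6 and 64.3 in wild type. All mutant libraries lay below all wild type ones, and the log2 difference was -0.52 ± 0.162 (SE; limma adjusted p = 0.0288). The call of fgf13b was lost without mutant replicate 1 or 2 or wild type replicate 3 or 4 (limma adjusted p from 0.0674 to 0.126).

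Its paralogue fgf13a had 78.7, 66.4 and 65.3 in mutants against 97, 75.8 and 93.2 in wild type, an overlapping pair of groups with a difference of -0.33 ± 0.142 (SE; limma adjusted p = 0.116). fgf12a, from 25 counts in mutants and 48 in wild type, had 4.1, 8.9 and 10.9 in mutants against 13.9, 16.2 and 16.9 in wild type. The groups did not overlap, and the difference of -0.98 ± 0.362 (SE) missed the threshold (limma adjusted p = 0.0655), though fgf12a passed without mutant replicate 3 (0.0452). fgf12b had 79.7, 61.4 and 63.5 in mutants against 68.1, 79 and 57 in wild type, with a difference of 0.006 and an interval from -0.32 to 0.34. fgf14, from 18 counts in mutants and 28 in wild type, had a difference of -0.69 (limma adjusted p = 0.291). With equal totals fgf12a and fgf13a passed as well (limma adjusted p = 0.042 and 0.0358). Neuron markers were lower in the same mutant libraries, and their part in these values was not tested.

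Of the 12 members tested among ligands, factors, binding proteins and receptors 4 were called, or 33.3%, against 19.4% of all genes. The genotypes did not overlap for 7 of the 12, or 58.3%, against 34.6% of all genes. No test was run on these shares. The count of 4 called was 2 without mutant replicate 1 or wild type replicate 3. Fewer of all genes were called in these fits as well.

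Among the feedback regulators both Sprouty genes were higher in the mutant. Sprouty proteins are intracellular inhibitors of receptor tyrosine kinase signalling that ERK activity induces. spry2 had 133.5, 149.6 and 153.2 normalized counts in mutants against 106.2, 112.6 and 115.7 in wild type. No mutant library came down to the wild type range, but the step was small, with a ratio of means of 1.3 and a log2 difference of 0.38 ± 0.112 (SE; limma adjusted p = 0.0223). spry4 had 47.6, 37.6 and 50.8 in mutants against 23.1, 24.9 and 32.9 in wild type, again without overlap. The log2 difference of spry4 was 0.73 ± 0.203 (SE; limma adjusted p = 0.0151). With equal totals the spry2 difference was 0.27 and no longer passed (limma adjusted p = 0.121). The call of spry2 was also lost without mutant replicate 2 or 3 or wild type replicate 1 or 3 (limma adjusted p from 0.0503 to 0.0908). That of spry4 was lost without mutant replicate 1 or 3 or wild type replicate 1 (0.0517 to 0.0775).

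The other membrane-associated inhibitors did not pass. il17rd, which encodes Sef, had 30, 23.8 and 22.7 normalized counts in mutants against 23.1, 15.2 and 17.7 in wild type. Its groups overlapped by a narrow margin, at mutant replicate 3 and wild type replicate 1, and the log2 difference was 0.44 ± 0.247 (SE; limma adjusted p = 0.241). spred3, a member of the Sprouty-related family that restrains Ras and Raf, had 43.5, 34.7 and 33.5 in mutants against 33.5, 47.6 and 45.8 in wild type (limma adjusted p = 0.591). spred2b had only 14 counts in mutants and 18 in wild type, and a difference of -0.33.

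ETS factors of the Etv1, Etv4 and Etv5 group bind DNA downstream of ERK. etv5b, the zebrafish gene long used as a readout of FGF signalling, had 15.5, 15.8 and 12.7 normalized counts in mutants against 4.6, 7.6 and 9.6 in wild type. All mutant libraries were above all wild type ones, with a ratio of means of 2.02, but the difference of 0.97 ± 0.352 (SE) missed the threshold (limma adjusted p = 0.0616). The table has another row of the symbol, etv5b_1, with 3.1, 6.9 and 5.4 in mutants against 3.5, 3.2 and 2.4 in wild type. The sources used here do not say how reads were divided between rows of 1 symbol, so the single rows are uncertain. With both rows summed, etv5b had 18.6, 22.7 and 18.1 in mutants against 8.1, 10.8 and 12 in wild type. That sum differed by 0.89 ± 0.293 (SE; limma adjusted p = 0.0387), and it was not refitted with a library left out. The row etv5b alone passed in none of the fits with 1 library left out (limma adjusted p from 0.0522 to 0.196).

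etv1 had 8.3, 6.9 and 6.3 in mutants against 8.1, 10.8 and 8.8 in wild type, with overlap and a difference of -0.32 (limma adjusted p = 0.598). The row etv5a_2, the only one of its symbol, had 5 counts in mutants and 15 in wild type (exact permutation test, two-sided, p = 0.2).

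Dual specificity phosphatases remove phosphate from the threonine and tyrosine of MAP kinases. Of the 4 rows of ERK-directed phosphatases 1 passed, where 19.4% of all genes did, and with 4 rows nothing is read from that share. dusp2, an inducible nuclear phosphatase, had 55.9, 64.4 and 87.9 normalized counts in mutants against 48.5, 34.6 and 47.4 in wild type. The groups did not overlap, with mutant replicate 3 well above the rest and mutant replicate 1 close to the wild type libraries. The log2 difference was 0.65 ± 0.186 (SE; limma adjusted p = 0.0182), and the dusp2 call was lost without mutant replicate 3 (0.129) or wild type replicate 3 (0.0945). With equal totals the difference of dusp2 was 0.54 (limma adjusted p = 0.0549).

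dusp6, the ERK phosphatase most often used as an FGF target, also stood in 2 rows. The row dusp6 had 19.7, 26.7 and 23.6 normalized counts in mutants against 27.7, 22.7 and 24.1 in wild type, and the row dusp6_1 had 23.8, 19.8 and 29.9 in mutants against 9.2, 20.6 and 16.1 in wild type. The estimates of the rows had opposite signs, -0.09 and 0.69 on the log2 scale, and neither passed (limma adjusted p = 0.831 and 0.111). The interval of the row dusp6 ran from -0.57 to 0.38, so that row shows no clear direction. Summed, dusp6 had 43.5, 46.5 and 53.5 in mutants against 36.9, 43.3 and 40.2 in wild type. The sums just failed to overlap, with a difference of 0.25 ± 0.171 (SE; limma adjusted p = 0.359) and an interval from -0.11 to 0.60. dusp7, a cytoplasmic ERK phosphatase gene, had 45.5, 41.6 and 62.6 in mutants against 68.1, 49.8 and 51.4 in wild type, with overlap and a difference of -0.18 (limma adjusted p = 0.543). Of the 24 feedback and phosphatase members 21 were tested and 4 passed, or 19.0%, against 19.4% of all genes.

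**Figure D3:**
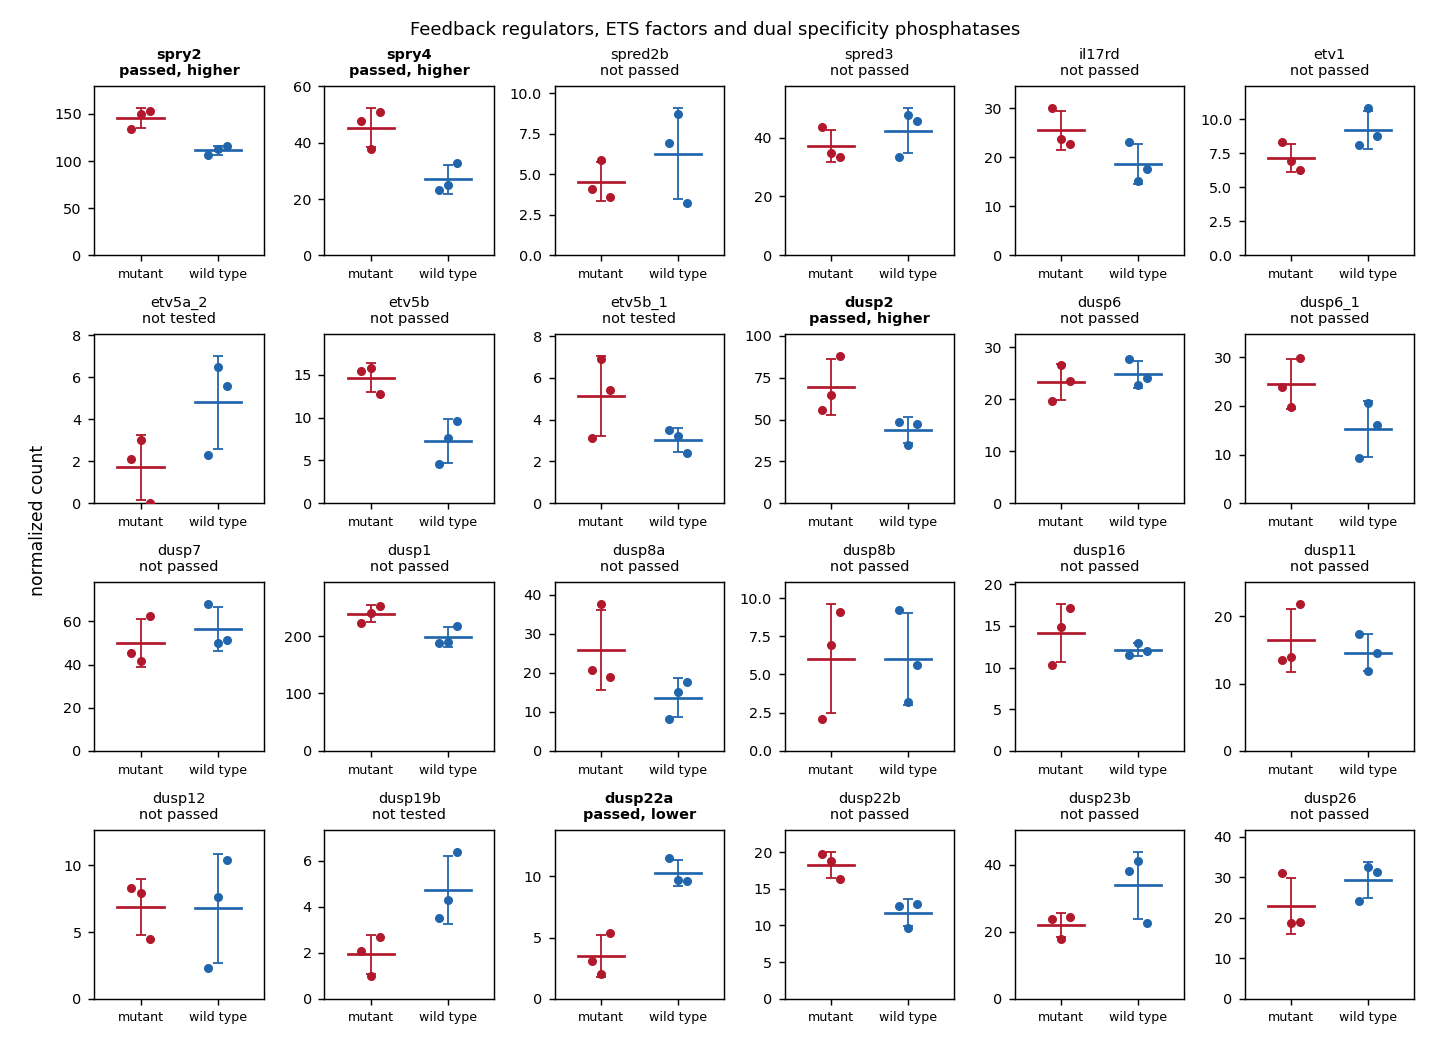
Normalized counts (y axis, each from 0) of the 24 feedback regulator, ETS factor and dual specificity phosphatase rows in mutant (red, left) and wild type (blue, right) libraries; bars are means and whiskers SD. spry2 lies at 133.5 or above in mutants and at 115.7 or below in wild type, while neither of the 2 dusp6 rows passed.

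The remaining 11 dual specificity phosphatase genes act on p38 and JNK or on other substrates. Of 10 tested 1 passed, and it was lower, where 19.4% of all genes passed and 8.5% were lower. With 10 genes nothing is read from that count. dusp22a, an atypical phosphatase gene known from JNK signalling, had 3.1, 2 and 5.4 normalized counts in mutants against 11.5, 9.7 and 9.6 in wild type. All mutant libraries lay below the wild type ones, on 11 counts in mutants and 31 in wild type. The log2 difference was -1.39 ± 0.441 (SE; limma adjusted p = 0.0319), and the call of dusp22a was lost without any 1 library except mutant replicate 3 (limma adjusted p from 0.0663 to 0.108). Its paralogue dusp22b had 19.7, 18.8 and 16.3 in mutants against 12.7, 9.7 and 12.9 in wild type. Those groups did not overlap either, in the opposite direction, with a difference of 0.60 ± 0.283 (SE) that did not pass (limma adjusted p = 0.155).

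The contrast between the paralogues was taken as the log2 ratio of dusp22a to dusp22b within each library. It was -2.34, -2.72 and -1.44 in mutants against -0.13, 0 and -0.39 in wild type, a difference of -1.99. The groups had to part here, since every mutant library was lower for dusp22a and higher for dusp22b. The exact two-sided permutation p of 0.1, the smallest that 3 against 3 libraries allow, therefore adds nothing to the single genes. Adjusted over the 4 paralogue pairs compared, which were chosen after the data were seen, the permutation p was 0.2. The ratio of fgf12a to fgf12b differed by -0.98 with the same p values. Those of fgf13a to fgf13b and of dusp8a to dusp8b differed by 0.19 and 0.93 and overlapped (exact two-sided permutation p = 0.6 and 0.4).

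dusp1, an immediate early phosphatase gene that acts on p38 and JNK, had 223.5, 240.7 and 252.1 normalized counts in mutants against 187, 189.5 and 217.7 in wild type. The groups stood apart by a small step, 0.27 ± 0.0996 (SE) on the log2 scale, which missed the threshold (limma adjusted p = 0.0647). It passed without wild type replicate 4 (0.045). dusp8a had 20.7, 37.6 and 19 in mutants against 8.1, 15.2 and 17.7 in wild type, without overlap but with mutant replicate 2 far above the others (limma adjusted p = 0.0646). dusp23b had 23.8, 17.8 and 24.5 in mutants against 38.1, 41.1 and 22.5 in wild type, where wild type replicate 4 lay within the mutant range. The difference of dusp23b was -0.57 (limma adjusted p = 0.121), or -0.83 without wild type replicate 4 (0.0303). The other 5 tested genes, dusp8b, dusp11, dusp12, dusp16 and dusp26, had adjusted p values of at least 0.328. Dissociation and heat shock genes, which hold several immediate early genes, were higher in the same mutant libraries as spry2, spry4, dusp1 and dusp2, and their part in these values was not tested.

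Across all feedback and phosphatase members the count of 4 called was 2 without mutant replicate 1 or 2, and 1 without mutant replicate 3, wild type replicate 1 or wild type replicate 3. Fewer of all genes were called in each of these fits too.

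Few of the kinases passed. Of 19 tested 1 passed, or 5.26%, against 19.4% of all genes, and the genotypes did not overlap for 3 of the 19, or 15.8%, against 34.6% of all genes. No test was run on these shares, and some tested kinases had few counts, such as mapk15 with 17 in mutants and 18 in wild type. The median log2 difference of the kinases was -0.05, against -0.01 for all genes. mapk11, which encodes a p38 kinase, had 102.5, 104 and 98.8 normalized counts in mutants against 73.9, 79 and 73.9 in wild type. Both groups were tight, at 101.8 ± 2.68 in mutants and 75.6 ± 2.94 in wild type (SD, n = 3 each), so that a ratio of 1.35 parted them. The log2 difference of mapk11 was 0.42 ± 0.124 (SE; limma adjusted p = 0.0201). It no longer passed without mutant replicate 1 or 2 or wild type replicate 4 (limma adjusted p from 0.0543 to 0.0628), nor with equal totals, where it was 0.31 (0.0882).

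In the ERK arm the MEK gene map2k1 had 31, 31.7 and 34.5 normalized counts in mutants against 32.3, 29.2 and 30.5 in wild type. The libraries were close to each other, and the interval of the difference ran from -0.33 to 0.48. mapk3, which encodes ERK1, had 40.4, 34.7 and 31.7 in mutants against 35.8, 15.2 and 24.9 in wild type. Wild type replicate 1 lay within the mutant range, and the difference was 0.55 ± 0.257 (SE; limma adjusted p = 0.151). Without that library the mapk3 difference was 0.83 (limma adjusted p = 0.0293), so that 2 kinases then passed. The 2 genes of MEK2 had lower means in mutants. map2k2b had 16.6, 13.9 and 13.6 in mutants against 23.1, 16.2 and 22.5 in wild type (limma adjusted p = 0.272). map2k2a had 3.1, 3 and 3.6 in mutants against 6.9, 5.4 and 4.8 in wild type, which did not overlap but rest on 10 counts in mutants and 17 in wild type (exact permutation test, two-sided, p = 0.1, the smallest possible).

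The ERK5 genes mapk7 and map2k5 had differences of -0.26 and 0.35 and did not pass (limma adjusted p = 0.375 and 0.501). In the p38 arm the activating kinase gene map2k6 had 59, 58.4 and 75.3 normalized counts in mutants against 63.5, 53 and 69.9 in wild type. Its difference was 0.046, with an interval from -0.29 to 0.38. That interval overlaps the one of mapk11 in the same arm, from 0.17 to 0.68. mapk12b and mapk14b had differences of 0.32 and -0.31, on 40 and 49 counts, and did not pass.

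The 3 tested JNK arm genes had negative differences, none past the threshold. mapk10, the gene of the neuronal JNK3, had 56.9, 76.3 and 78.9 normalized counts in mutants against 79.6, 82.3 and 80.3 in wild type. The groups did not overlap, yet only mutant replicate 1 lay far from the rest, and without it the difference was -0.06 in place of -0.20. map2k4b, a kinase gene upstream of JNK, had 52.8, 52.5 and 63.5 in mutants against 54.2, 76.9 and 66.7 in wild type (limma adjusted p = 0.397). mapk8b had a difference of -0.18 (limma adjusted p = 0.672).

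At the top of the relays map3k4 and map3k7 had differences of -0.05 and -0.14, with intervals within 0.48 of 0. map3k7 encodes TAK1, which passes on signals of TGF-beta and of inflammation. map3k1 had 9.3, 11.9 and 13.6 normalized counts in mutants against 9.2, 7.6 and 3.2 in wild type. Its groups parted by a narrow margin, and the difference of 0.80 ± 0.404 (SE) did not pass (limma adjusted p = 0.188). map3k14a, mapk4, mapk4_1 and mapk15 had adjusted p values of at least 0.563. The 1 called kinase was lost, leaving 0 called, without mutant replicate 1 or 2 or wild type replicate 4, where 1 kinase in each case was past an unadjusted p of 0.05. In these fits fewer of all genes were called as well.

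**Figure D4:**
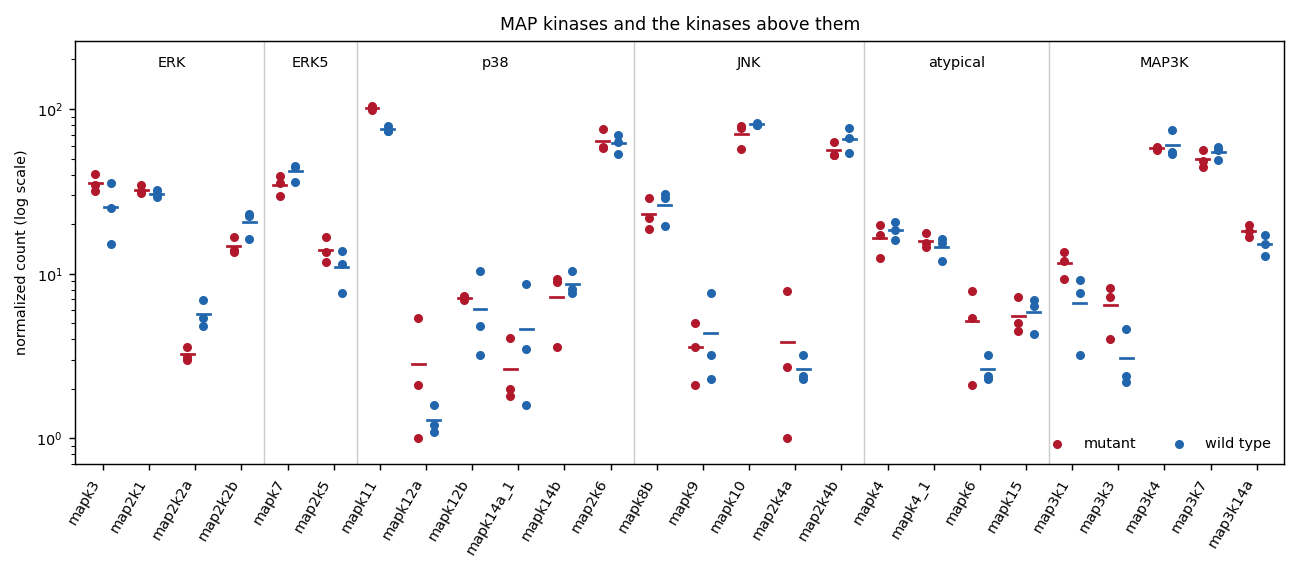
Normalized counts (y axis, log scale) of the 26 kinase rows in the 3 mutant (red, left of each pair) and 3 wild type (blue) libraries, grouped by arm, with bars at the means. mapk11 is the gene whose groups are tight and apart (98.8 to 104 in mutants and 73.9 to 79 in wild type), and several of the rows below 10 normalized counts scatter widely.

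Below the filter on low values lay 13 members, each with 13 to 29 counts over the 6 libraries. They were fgf3, fgf8b, etv5a_2, etv5b_1, dusp19b, map2k2a, mapk12a, mapk14a_1, mapk9, map2k4a, mapk6, map3k3 and the JNK scaffold gene mapk8ip1a. For dusp19b, map2k2a and mapk8ip1a, 3 of the 13, all mutant values were below all wild type ones. Of all genes tested, which lie above the filter, 16.7% were so placed and 34.6% did not overlap in either direction. Nothing is read from the count of 3. dusp19b had 2.1, 1 and 2.7 normalized counts in mutants against 3.5, 4.3 and 6.4 in wild type, and mapk8ip1a had 3.1, 1 and 3.6 in mutants against 5.8, 4.3 and 4.8 in wild type. Without the filter limma called none of the 13, where the smallest adjusted p was 0.225. The other scaffold gene, mapk8ip2, had a difference of -0.24 (limma adjusted p = 0.773).

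Of the members that share only their name, fgfr1op had 93.1, 75.3 and 76.2 normalized counts in mutants against 109.7, 95.3 and 99.6 in wild type. The groups did not overlap and the difference of -0.32 did not pass (limma adjusted p = 0.102), though it did with equal totals (0.0273). fgfr1op2 had a difference of -0.09. The rows spryd4 and spryd4_1 differed by -0.29 and 0.58, and their sum by 0.28 (limma adjusted p = 0.431). spryd4_1 passed without wild type replicate 1 (limma adjusted p = 0.023).

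Genes of the pathway that carry other names were read beside the members. Of 39 genes of the Ras and Raf relay and its adaptors 26 were tested and 2 were higher, rras and sos2, a share near the 10.9% of all genes, with a median of 0.17 (0.06 with equal totals). rras, which encodes a Ras-related GTPase, had 45.5, 39.6 and 49.9 normalized counts in mutants against 28.9, 22.7 and 18.5 in wild type. That gap exceeded the spread in both groups, with a log2 difference of 0.93 ± 0.210 (SE; limma adjusted p = 0.00348). sos2, an exchange factor that loads Ras with GTP, had a difference of 0.60 (limma adjusted p = 0.0375), lost whichever library was left out (0.0514 to 0.13). lamtor2 encodes part of a MEK scaffold complex on late endosomes. It had 35.2, 38.6 and 51.7 in mutants against 62.3, 50.9 and 61 in wild type, with overlap at mutant replicate 3. Its difference was -0.48 (limma adjusted p = 0.0668), or -0.64 without mutant replicate 3 (0.0286).

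Of a list of 34 genes, mostly of FGF co-receptors and heparan sulphate, 18 were tested. In that list 3 were higher, where 10.9% of all genes were, and ism1 among them belongs to neither kind. ism1, the gene of a secreted protein expressed with Fgf8 in vertebrate embryos, had 40.4, 36.7 and 45.3 normalized counts in mutants against 19.6, 16.2 and 22.5 in wild type (limma adjusted p = 0.00164). sulf1, which encodes a sulphatase that trims heparan sulphate outside the cell, had 48.6, 53.5 and 48.1 in mutants against 21.9, 24.9 and 41 in wild type. sdc2, a syndecan core protein gene, had 21.7, 25.8 and 24.5 in mutants against 16.2, 9.7 and 7.2 in wild type. None of these 3 overlapped between the groups. The call of sulf1 (0.0121) was lost without wild type replicate 1 or 3, and that of sdc2 (0.013) without mutant replicate 2 or wild type replicate 4 (limma adjusted p up to 0.0624). The median of the 18 was 0.07, or -0.04 with equal totals. Mesenchyme markers were higher in the same libraries, and their part in these values was not tested.

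Of 18 kinases and factors below ERK or p38, such as the Mapkap kinases, only 6 could be tested and limma called none, with 1 past an unadjusted p of 0.05. That was cicb, a paralogue gene of the ETS target repressor Capicua, at 0.43 (limma adjusted p = 0.129). mapkapk5 and cica had differences of -0.28 and -0.39 (limma adjusted p = 0.453 and 0.563).

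Of 25 ERK-responsive genes with other names 15 were tested and 8 were higher, where 10.9% of all genes were, with a median of 0.46 (0.35 with equal totals). ier2a, an immediate early gene, had 989.4, 1138.2 and 1038.1 normalized counts in mutants against 557.5, 578.1 and 554.2 in wild type (limma adjusted p = 5.1e-08). The AP-1 genes junbb and fosab were higher by 0.81 and 0.72 (limma adjusted p = 2.11e-07 and 6.05e-07). The list shares 8 genes with the dissociation and heat shock list, of which 6 were tested and 5 were higher. Of the other 9 tested genes 3 were higher, with a median of 0.12. These 3, chosen after their values were seen, were the cyclin gene ccnd1 with 138.7, 143.6 and 132.4 in mutants against 81.9, 73.6 and 94.8 in wild type, phlda3 and mcl1a. phlda3, a p53 target, had a difference of 0.97 (limma adjusted p = 0.00925), lost without mutant replicate 1 or wild type replicate 3 (up to 0.0531). ccnd1 differed by 0.73 (limma adjusted p = 0.00031), and mcl1a, which encodes a survival factor of the Bcl-2 family, by 0.46 (0.000449). In the same list phlda1, also chosen after its values were seen, went the other way. It had 15.5, 8.9 and 18.1 in mutants against 27.7, 18.4 and 23.3 in wild type. The groups of phlda1 did not overlap, and its difference of -0.71 did not pass (limma adjusted p = 0.103). The part of dissociation in these values was not tested.

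**Figure D5:**
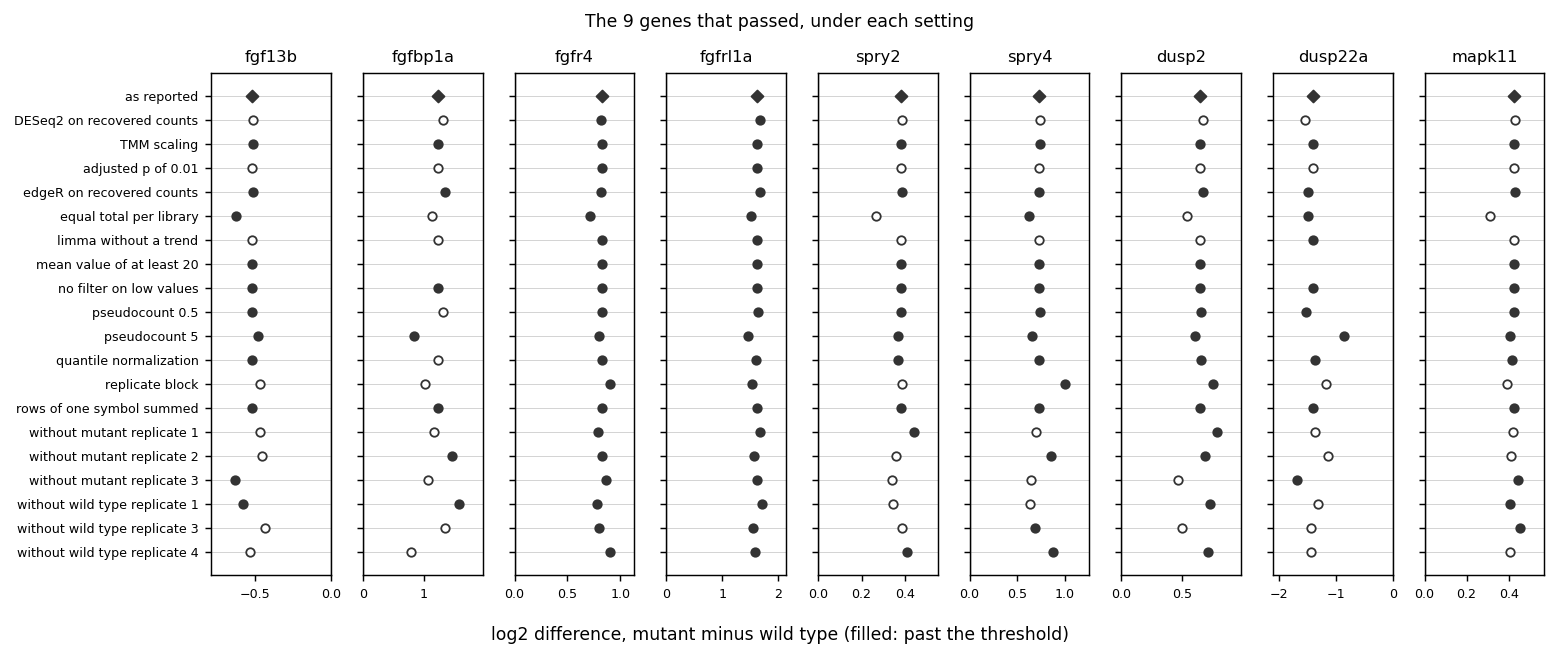
Log2 differences (mutant minus wild type, x axes) of the 9 members that passed, as reported (diamond) and under the alternatives (circles), 19 for most genes and 18 for fgfbp1a and dusp22a, which fall under a mean of 20; filled points are past the threshold. fgfr4 and fgfrl1a are filled throughout, while the other genes keep their direction and lose the call under several settings.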

How the data were processed

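The authors deposited a single table, normalized by its name, of 11218 genes in 6 libraries. In it 99.999% of 67308 deposited signal values equal a whole number of steps (tolerance 0.0505), the step being the worth of 1 count in that library. The build was danRer11, per the submitters' processing notes, and aligner and counter were not given in the sources used here. Genotype was tested by limma with a trended variance on log2(value + 1), over the 9647 genes that averaged 5 or more, with Benjamini-Hochberg adjustment and a threshold of 0.05. A fold change on this scale understates the change of low genes. Members under that mean, and ratios of paralogues, were compared by exact permutation over libraries.

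The members and lists were chosen with earlier results of these data known. Members named in full were those that passed and, of a panel of 20 well known pathway genes, the 12 held in the table. Of the others, fgfr3 and etv5a were read only as rows with a suffix, and the rest were not analysed here. Up to 3 further members of each class were taken by level, and 3 genes by p of each other pathway list. Members named beyond these, such as fgfbp2a, fgf12a, etv1, dusp22b and map3k1, were chosen after their values were seen. RefSeq's gene table for GRCz12tu held 70 of the 71 symbols, and 1 more under an older name. The alternatives were other pseudocounts, filters and scalings, limma without a trend, both DESeq2 and edgeR run on counts recovered from the steps, a replicate block, summed rows of 1 symbol, a stricter threshold and each library left out. The replicate block compares the genotypes only through replicates 1 and 3, the numbers that both hold. The paralogue ratios, chosen after the data were seen, were recomputed under other pseudocounts and with each library left out. The procedure was tested on simulated data. It called 35.4% of 48 genes changed 1.5-fold, 59.6% of 47 changed 2-fold and 87.8% of 41 changed 4-fold. The simulation gave 141 calls in all, 6 of them false, where the data gave 1873, so these shares are a rough guide. SDs are the spread between libraries. SEs and intervals are those of limma, which draws the variance of each gene towards the trend over all genes tested. No counting intervals are given. Tests ran in limma 3.58.1, DESeq2 1.42.0 and edgeR 4.0.16 under R 4.3.3. Tables were handled with pandas 2.3.3, numpy 2.4.6 and scipy 1.17.1 under Python 3.11.15, and plots with matplotlib 3.10.9.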

Additional observations from a re-analysis of the deposited data

How the results depend on the processing

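fgfr4 and fgfrl1a passed in all 19 alternatives, at 0.71 to 0.91 and 1.46 to 1.72 on the log2 scale, and no member that passed changed direction in any of them. The 7 members higher in the mutant became 2 in DESeq2, at an adjusted p of 0.01 and in limma without a trend, and 3 with equal totals. The 2 lower members became 0 in DESeq2 (2 past an unadjusted p of 0.05), at an adjusted p of 0.01 and with the replicate block (3 past an unadjusted p of 0.05), 1 in limma without a trend and with a mean of at least 20, and 5 with equal totals. The 4 called ligand, factor and receptor genes became 2 in DESeq2, at 0.01 and without a trend. The 4 called feedback and phosphatase genes became 0 in DESeq2 (5 past an unadjusted p of 0.05) and at 0.01, 1 without a trend and 2 with equal totals. The 1 called kinase became 0 in DESeq2 (1 past an unadjusted p of 0.05), at 0.01, with equal totals (1), without a trend (2) and with the replicate block (2). The 13 called genes of the other pathway lists became 7 without a trend. edgeR gave 7 higher and 2 lower members. With 1 library left out the counts ranged from 3 to 8 for higher members, 0 to 3 for lower members, 2 to 4 for ligands and receptors, 1 to 5 for feedback and phosphatase genes, 0 to 2 for kinases and 10 to 13 for the other lists. The calls of all genes then ranged from 779 to 978 higher and from 590 to 671 lower. Over all genes DESeq2 called 623 higher and 408 lower, limma without a trend 578 and 429, and the fit as reported 1053 and 820. The cause of these changes was not tested.

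The genotypes share only the replicate numbers 1 and 3. The deviations of same-numbered libraries from their group means had correlations of 0.0429 and -0.00952. Those of other pairs ranged from -0.049 to 0.055. On the second axis of a principal component analysis of all genes tested, mutant and wild type replicate 1 lay at 21.87 and 24.04. The other libraries lay from -16.28 to -7.825, replicate 3 of both genotypes among them. Whether same-numbered libraries share a batch or clutch was not tested, and these correlations cannot tell. The replicate block compares the genotypes only through replicates 1 and 3. Mutant replicate 2 and wild type replicate 4 have no partner of their number and add nothing to the difference. With the replicate block 898 genes were higher and 699 lower. Then fgfr2 (0.77), fgfbp2a (1.85) and dusp1 (0.33) passed, and fgf13b (-0.47), fgfbp1a (1.02), dusp22a (-1.18), mapk11 (0.39) and spry2 (0.38) did not.

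Signs changed for members that had not passed. With equal totals the difference was -0.10 for fgf12b, -0.032 for map2k1 and -0.064 for map2k6. With the replicate block it was -0.043 for fgf12b, in edgeR -0.023 for fgfr3_1, and with its rows summed 0.25 for dusp6. With 1 library left out it ranged from -0.11 to 0.12 for fgf12b, from -0.18 to 0.47 for fgfr3_1, from -0.19 to 0.020 for dusp6, from -0.072 to 0.14 for map2k6 and from -0.48 to 0.022 for mapk8ip2.

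The members had 13 to 1345 counts over all libraries, and with 3 libraries per genotype a member that did not pass is not shown to be equal in both.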
